A study of Homo sapiens with 12 samples.

Results

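A set of 9 mRNAs that mark a mesenchymal, adhesive cell state or that are textbook targets of the transcriptional co-activator YAP was followed in H1299 cells after knockdown of the translation initiation factor subunit EIF3G. The members were fixed by name, with earlier results of these data known: VIM, ITGB1, CCN1, CCN2, ANKRD1, THBS1, FN1, TGFBI and CAV1. Comparisons of the set with all genes are therefore descriptions. All 9 of 9 have a row in the table of 16172 genes. H1299 is a human non-small-cell lung cancer line, here a single line of lung origin. Cells received either siEIF3G, an equal mix of 2 siRNAs against EIF3G, or siCtrl, a control siRNA, and were lysed after 72 h. A share of 10% of the lysate served as input, and the polysomal fraction came from a sucrose gradient of 10% to 50%. The 12 libraries form 4 groups of 3: siEIF3G polysomal, siCtrl polysomal, siEIF3G input and siCtrl input. Nothing in the labels ties the replicates to separate cultures, so the p-values reflect only how far these libraries differ, which may be technical.

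YAP and its paralogue TAZ are co-activators without a DNA-binding domain that are held in the cytoplasm by the Hippo kinases and, once in the nucleus, act through TEAD transcription factors. CCN1, CCN2 and ANKRD1 are the genes most often read as their output. TGF-beta acts through SMAD factors and, with YAP, is known to raise matrix and adhesion genes such as FN1, THBS1, TGFBI, CCN2 and ITGB1, while VIM encodes the intermediate filament of mesenchymal cells. EIF3G belongs to eIF3, the complex that helps the small ribosomal subunit to load onto mRNA, and mRNAs under active translation sediment with polysomes.

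The TEAD core motif, GGAATG or CATTCC on either strand, was looked up in the 250 bases before the start of each gene, in promoters from RefSeq (GRCh38.p14). A promoter was matched for 8 of the 9 members, all except CCN1, in 11 entries. The motif occurs in 11.9% of all 35116 promoters of that length, counted per entry, whereas CAV1 and ITGB1 have several entries. It is present for 4 members, once for THBS1, once in one of the promoters listed for ITGB1, and more than once for ANKRD1 and CCN2. CCN2 holds 3 copies (0.0826% of promoters have 3 or more), at 169 to 164, 104 to 99 and 95 to 90 bases before the start. ANKRD1 holds 2 copies, at 220 to 215 and 128 to 123 bases before the start, and 0.94% of promoters have 2 or more. ANKRD1 also holds an AP-1 motif (TGANTCA, both strands, in 6.57% of promoters), which does not overlap a TEAD motif. VIM, FN1, TGFBI and CAV1 hold no TEAD core in these windows, which says only that those letters are not there. The 3 sequences shown are those of the YAP targets with several copies and of ITGB1, the member with the largest difference on polysomes. Capitals mark the TEAD core. CCN2 lies at chr6:131951373-131951622, ANKRD1 at chr10:90921088-90921337 and ITGB1 at chr10:32958231-32958480, all on the minus strand and written 5′ to 3′ towards the start.
CCN2: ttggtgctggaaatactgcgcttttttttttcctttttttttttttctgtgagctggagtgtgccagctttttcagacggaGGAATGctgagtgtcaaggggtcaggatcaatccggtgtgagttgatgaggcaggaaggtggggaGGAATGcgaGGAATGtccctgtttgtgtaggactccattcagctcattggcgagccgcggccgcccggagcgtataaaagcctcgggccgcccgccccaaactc
ANKRD1: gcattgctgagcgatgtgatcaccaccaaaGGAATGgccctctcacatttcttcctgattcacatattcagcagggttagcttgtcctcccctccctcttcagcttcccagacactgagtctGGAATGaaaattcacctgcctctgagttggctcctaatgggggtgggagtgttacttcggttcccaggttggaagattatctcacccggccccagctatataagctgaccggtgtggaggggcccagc
ITGB1: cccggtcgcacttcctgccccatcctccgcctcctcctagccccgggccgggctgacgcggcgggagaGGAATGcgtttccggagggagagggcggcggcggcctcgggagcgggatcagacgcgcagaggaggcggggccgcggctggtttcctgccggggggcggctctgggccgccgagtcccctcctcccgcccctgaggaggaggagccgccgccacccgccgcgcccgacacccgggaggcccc

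Values are TPM, transcripts scaled to a fixed library total, which correct for gene length and are shares of a library. EIF3G averaged 115 ± 39.9 TPM in siEIF3G and 1800 ± 118 TPM in siCtrl polysomal RNA (SD, n = 3 each), and 64.3 ± 19 TPM in siEIF3G and 1040 ± 147 TPM in siCtrl input, so 6.38% and 6.16% of the control level remained. Each library listed 13787 to 14659 genes above 0 TPM. KRT8 and KRT18, keratins of simple epithelia, reached 107.6 to 429.32 and 435.3 to 1933.86 TPM beside abundant VIM, while the epithelial cadherin CDH1 stayed at 0 to 0.04 TPM. Of 17 markers of other cell types 8 are in the table, and their sum was 81.4 to 113 TPM in siEIF3G polysomal, 59.1 to 132 in siCtrl polysomal, 68.1 to 108 in siEIF3G input and 69.9 to 92.4 in siCtrl input. Nearly all of it was the macrophage and lysosome marker CD68, and no other marker exceeded 0.23 TPM. A total of 3 libraries correlated better, across genes, with the other fraction of the same siRNA than with their own group: siEIF3G polysomal 3 (mean r 0.953 against 0.949), siEIF3G input 2 (0.958 against 0.929) and siCtrl input 1 (0.957 against 0.922). They are drawn as open symbols in the plot of levels, and results are also given without them.

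By mean TPM over the 12 libraries the members formed 2 tiers. VIM was highest at 1390 TPM (rank 135 of 16172 genes), followed by CCN1 at 204, ITGB1 at 164, CAV1 at 84.3 and CCN2 at 44.8 TPM. TGFBI at 3.05, FN1 at 2.52, THBS1 at 1.64 and ANKRD1 at 1.24 TPM were low, and neighbours in this order overlapped in their range over libraries, except CCN2, whose lowest value (9.96 TPM) lay above the highest of the lower tier (7.91 TPM, FN1). The highest library exceeded the lowest by 49.4-fold for FN1, 30.6-fold for THBS1 and 25.4-fold for ITGB1, but by only 4.29-fold for TGFBI. Together the 9 mRNAs made up 0.14%, 0.108% and 0.261% of the siEIF3G polysomal libraries, against 0.0835%, 0.0657% and 0.0405% of the siCtrl polysomal ones. In input they made up 0.253%, 0.181% and 0.423% with siEIF3G, against 0.11%, 0.263% and 0.351% with siCtrl. Their share was higher in every siEIF3G polysomal library than in any siCtrl one, while the input groups overlapped, and VIM makes up most of the sum.

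**Figure D1:**
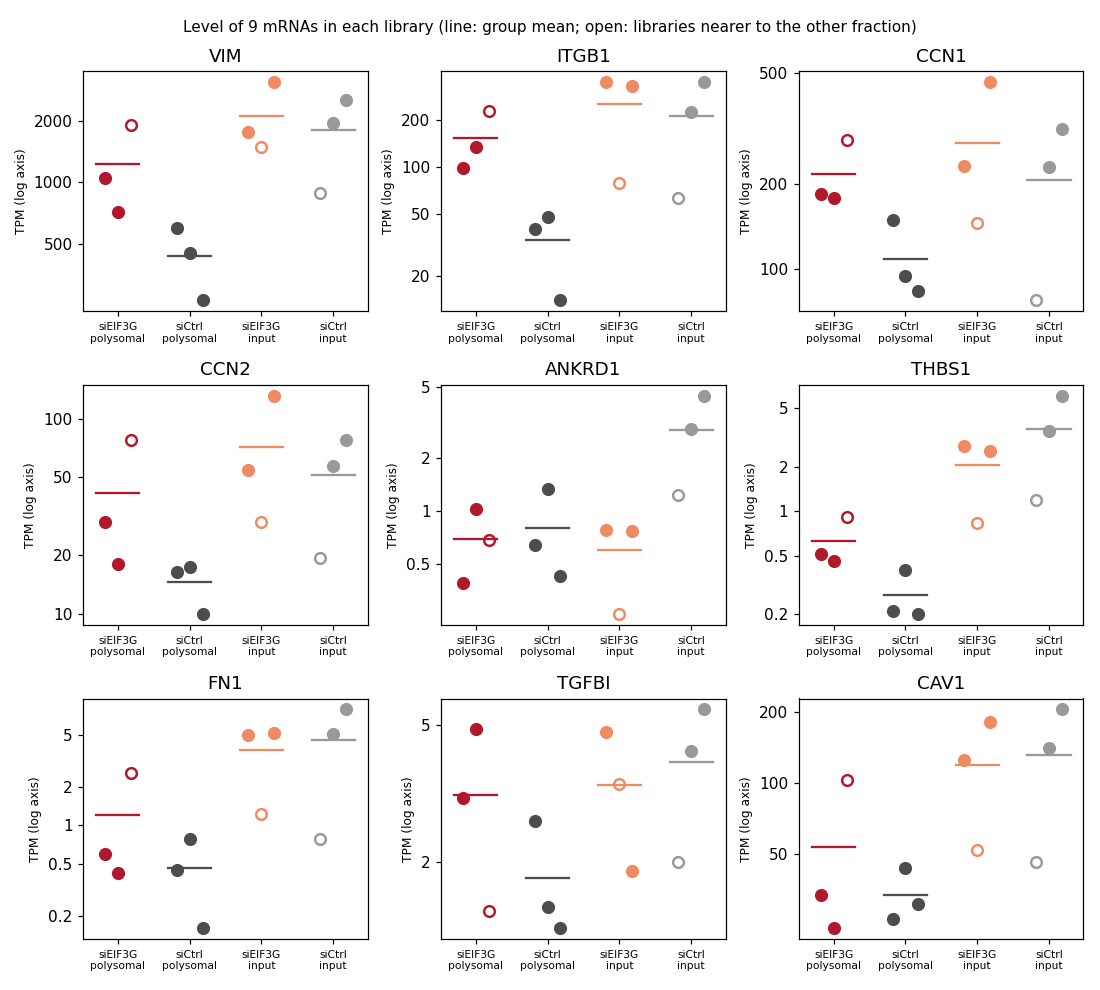
TPM of the 9 mRNAs in each of the 12 libraries on log axes, by siRNA and fraction (3 libraries per group, replicates 1 to 3 left to right; lines are group means; open symbols are the 3 libraries nearer to the other fraction). VIM, ITGB1, CCN1, CCN2 and THBS1 were higher in every siEIF3G polysomal than in every siCtrl polysomal library, and ANKRD1 was lower in every siEIF3G input than in every siCtrl input library.

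Among the cytoskeletal and adhesion genes, VIM (vimentin) had 1050.36, 718.02 and 1908.78 TPM in siEIF3G polysomal RNA, against 599.74, 450.10 and 264.98 TPM in siCtrl polysomal RNA. The groups did not overlap, and the means were 1230 ± 614 and 438 ± 168 TPM (SD, n = 3 each), a ratio of 2.8. In input VIM had 1754.77, 1496.08 and 3104.59 TPM with siEIF3G, against 888.87, 1961.03 and 2533.88 TPM with siCtrl. There the groups overlapped widely, and the lowest value was that of siCtrl input 1.

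ITGB1, the integrin beta-1 subunit shared by many matrix receptors, had 98.18, 134.30 and 229.93 TPM in siEIF3G polysomal RNA, against 39.89, 47.79 and 13.90 TPM in siCtrl polysomal RNA. Its means of 154 ± 68.1 and 33.9 ± 17.7 TPM gave the highest ratio of the 9 genes, 4.55, with no overlap. In input it had 353.65, 78.78 and 333.26 TPM with siEIF3G, against 63.34, 227.11 and 350.92 TPM with siCtrl. The input groups each held one low library, the same 2 that stand nearer to the polysomal fraction.

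CAV1, the coat protein of caveolae, had 33.27, 24.11 and 102.58 TPM in siEIF3G polysomal RNA, against 26.39, 43.49 and 30.40 TPM in siCtrl polysomal RNA. Its ratio of means, 1.6, rested on siEIF3G polysomal 3, and the other 2 siEIF3G libraries lay within or below the siCtrl range. In input it had 124.66, 52.01 and 182.01 TPM with siEIF3G, against 46.20, 140.84 and 205.17 TPM with siCtrl, which overlapped.

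Of the YAP targets, CCN1, a secreted matricellular protein that binds integrins, had 185.53, 179.07 and 289.36 TPM in siEIF3G polysomal RNA, against 149.04, 93.91 and 83.40 TPM in siCtrl polysomal RNA. The means of 218 ± 61.9 and 109 ± 35.3 TPM differed 2-fold without overlap. In input CCN1 had 233.66, 146.02 and 465.59 TPM with siEIF3G, against 77.14, 231.63 and 314.87 TPM with siCtrl. CCN2, its relative and a mediator of fibrosis, had 29.70, 18.09 and 77.32 TPM in siEIF3G polysomal RNA, against 16.35, 17.28 and 9.96 TPM in siCtrl polysomal RNA. The ratio of its means, 2.87, was higher than that of CCN1, but the gap between the groups was only that between 18.09 and 17.28 TPM. In input CCN2 had 54.44, 29.54 and 131.04 TPM with siEIF3G, against 19.37, 56.90 and 77.56 TPM with siCtrl, and the groups overlapped for both genes.

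ANKRD1 is a nuclear and sarcomeric ankyrin-repeat protein. In input it had 0.78, 0.26 and 0.77 TPM with siEIF3G, against 1.22, 2.90 and 4.48 TPM with siCtrl, with no overlap and a siEIF3G mean at 0.21 of the siCtrl mean. On polysomes it had 0.39, 1.02 and 0.68 TPM with siEIF3G, against 0.64, 1.32 and 0.43 TPM with siCtrl. Those groups overlapped, and all but 3 of the 12 values were under 1.3 TPM, close to the pseudocount of 1 that the log scale uses.

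Of the matrix genes, THBS1 (thrombospondin-1, an activator of latent TGF-beta) had 0.51, 0.46 and 0.91 TPM in siEIF3G polysomal RNA, against 0.21, 0.40 and 0.20 TPM in siCtrl polysomal RNA, which did not overlap. In input it had 2.77, 0.83 and 2.56 TPM with siEIF3G, against 1.19, 3.49 and 6.11 TPM with siCtrl, so its mean was lower with siEIF3G there, with overlap. FN1 (fibronectin, a matrix protein bound by integrins that hold the beta-1 subunit) had 0.60, 0.43 and 2.56 TPM in siEIF3G polysomal RNA, against 0.45, 0.79 and 0.16 TPM in siCtrl polysomal RNA. In input FN1 had 5.05, 1.23 and 5.15 TPM with siEIF3G, against 0.79, 5.10 and 7.91 TPM with siCtrl. The siEIF3G and siCtrl groups of FN1 overlapped in both fractions, and siEIF3G polysomal 3, siEIF3G input 2 and siCtrl input 1 lay far from the rest of their groups. TGFBI, a TGF-beta-induced matrix protein that binds integrins, had 3.08, 4.87 and 1.45 TPM in siEIF3G polysomal RNA, against 2.63, 1.48 and 1.29 TPM in siCtrl polysomal RNA. In input it had 4.77, 3.36 and 1.89 TPM with siEIF3G, against 2, 4.20 and 5.54 TPM with siCtrl. TGFBI overlapped in both fractions and was alone among the members in having its lowest siEIF3G polysomal value in library 3.

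The question of the polysomal comparison was which mRNAs took a larger or smaller share of the polysomal RNA after knockdown. In log2(TPM + 1), which understates the change of genes near or under 1 TPM, ITGB1 was higher in siEIF3G than in siCtrl polysomal RNA by 2.23 (SE 0.69, 95% interval 0.74 to 3.73), more than 99.9% of the genes tested. VIM was higher by 1.44 (SE 0.46, 0.46 to 2.43), CCN2 by 1.24 (SE 0.63, -0.12 to 2.61) and CCN1 by 1.01 (SE 0.5, -0.08 to 2.09). TGFBI (0.5, SE 0.44), FN1 (0.48, SE 0.6), CAV1 (0.41, SE 0.62), THBS1 (0.35, SE 0.42) and ANKRD1 (-0.07, SE 0.36) were within 2 SE of 0. No member passed an adjusted p of 0.05 (limma with Benjamini-Hochberg adjustment over 10605 genes); the unadjusted p was 0.00655 for ITGB1 and 0.00744 for VIM, with an adjusted p of 0.65 for both. Of all genes 0.0189% passed, that is 2 genes, both lower, with 709 at an unadjusted p under 0.05. The median difference of all genes was 0.33 and 72.7% of genes were positive, against a median of 0.5 and 8 of 9 positive for the members; relative to that median ITGB1 stood at 1.9, VIM at 1.11, CCN2 at 0.91 and CCN1 at 0.67. The groups did not overlap, with siEIF3G higher, for 5 of 9 members and for 21.6% of all genes. ITGB1, VIM, CCN2 and CCN1 were higher also after size-factor rescaling (1.72, 0.9, 0.73 and 0.47), which brings the median of all genes to -0.03. CAV1 turned to -0.12 under that rescaling, and to -0.2 without the 3 libraries that stand apart, where ITGB1 was 1.9, VIM 1.06, CCN1 0.79 and CCN2 0.68.

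In input RNA the comparison asks whether the mRNA itself changed in amount relative to the others. ANKRD1 was lower by 1.19 on the log2(TPM + 1) scale in siEIF3G than in siCtrl input (log2 fold change -1.19, SE 0.36, 95% interval -1.98 to -0.41), a value below which 0.198% of the genes tested lie. Its unadjusted p was 0.00582 and its adjusted p 1. ANKRD1 passed the filter, a mean of 1 TPM over all libraries, only through siCtrl input (2.87 TPM, against 0.603 to 0.797 TPM in the other 3 groups), so the filter itself favours a low value in this comparison, and neither its rank nor its p is support for one. With no filter the difference was also -1.19, with an adjusted p of 1. THBS1 (-0.5, SE 0.42), TGFBI (-0.16, SE 0.44), FN1 (-0.08, SE 0.6) and CAV1 (-0.06, SE 0.62) were negative, and CCN1 (0.5, SE 0.5), CCN2 (0.42, SE 0.63), VIM (0.29, SE 0.46) and ITGB1 (0.29, SE 0.69) positive, each within 2 SE of 0. No member passed, and 0.0189% of all genes did (2 genes, both lower; 144 at an unadjusted p under 0.05). The members' median was -0.06 and that of all genes -0.05, with 4 of 9 members and 43% of all genes positive. Groups with siEIF3G lower and no overlap were found for 1 of 9 members, ANKRD1, and for 1.8% of all genes. The ANKRD1 difference was -1 after size-factor rescaling, -0.88 after quantile normalization, -2.01 with a pseudocount of 0.1 and -0.47 with a pseudocount of 5. It was -1.38 without the 3 libraries that stand apart (adjusted p 0.185). In whole-culture RNA, fewer cells expressing a gene and less of its mRNA per cell cannot be told apart.

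**Figure D2:**
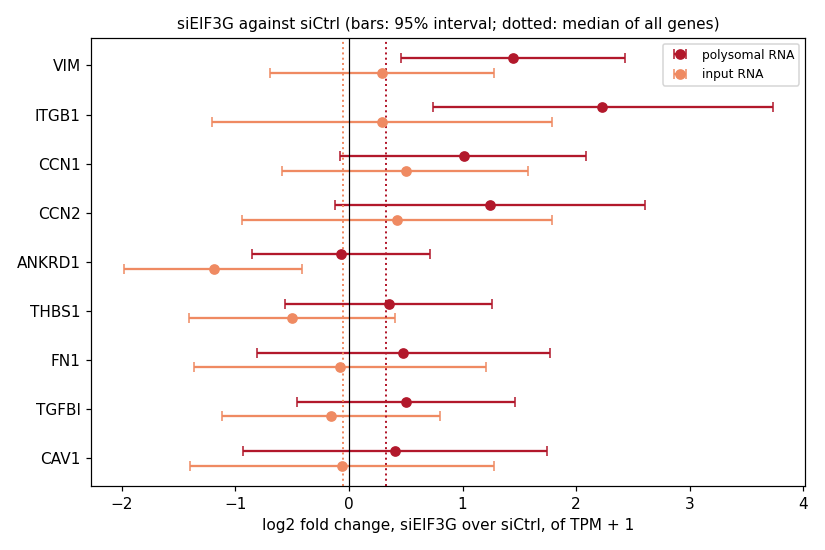
log2 fold change of TPM + 1, siEIF3G over siCtrl, for the 9 genes in polysomal and in input RNA (points are limma estimates over 3 libraries per group, bars their 95% intervals, dotted lines the medians of all genes tested). The polysomal intervals of VIM (0.46 to 2.43) and ITGB1 (0.74 to 3.73) and the input interval of ANKRD1 (-1.98 to -0.41) lie off 0; none of these passed after adjustment.

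The difference between the knockdown effects, polysomal minus input, addresses loading onto polysomes apart from the amount of mRNA. It was positive for 9 of 9 members and for 73.9% of all genes, with medians of 0.82 and 0.38. ITGB1 had the largest value, 1.94 (SE 0.98, unadjusted p 0.0684), above 99.9% of genes, followed by VIM at 1.15 (SE 0.64) and ANKRD1 at 1.12 (SE 0.51, unadjusted p 0.047). The values of VIM and ITGB1 lay in the polysomal effect, since their input effects were 0.29 each, whereas that of ANKRD1 lay in its lower input level. The filter, which kept ANKRD1 only through siCtrl input, favours a positive value for it. THBS1 (0.85, SE 0.6), CCN2 (0.82, SE 0.89), TGFBI (0.67, SE 0.63), FN1 (0.56, SE 0.84), CCN1 (0.51, SE 0.71) and CAV1 (0.47, SE 0.88) were within 2 SE of 0, as were ITGB1 and VIM. With 1 library left out the values spanned 0.25 to 1.39 for CCN2, 0.07 to 1.24 for FN1 and 0.1 to 1.11 for CCN1. No member and 0% of all genes passed in limma (smallest adjusted p 0.908; 19 genes at an unadjusted p under 0.05). With size-factor rescaling, where the median of all genes is -0.05, CCN1 turned to -0.06 and CAV1 to -0.1, and the other 7 members stayed positive.

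Polysomal against input RNA shows which mRNAs take a smaller share on polysomes than in the whole lysate. In siCtrl cells 6 of the 9 members were lower on polysomes past the threshold, against 28.9% of all genes. These were ITGB1 at -2.48 (SE 0.69, adjusted p 0.0326), VIM at -1.98 (SE 0.46, adjusted p 0.0198), CAV1 at -1.72 (SE 0.62, adjusted p 0.0468), THBS1 at -1.7 (SE 0.42, adjusted p 0.0251), FN1 at -1.67 (SE 0.6, adjusted p 0.0464) and ANKRD1 at -1.04 (SE 0.36, adjusted p 0.0449). CCN2 at -1.58 (SE 0.63, adjusted p 0.0572) missed the threshold, as did TGFBI at -0.77 and CCN1 at -0.75. THBS1 (0.27 TPM in siCtrl polysomal and 3.6 TPM in siCtrl input RNA) and ANKRD1 (0.797 and 2.87 TPM) passed the filter only through input groups, so the filter favours their lower values. FN1 (0.467 and 4.6 TPM) also owed its place mostly to input, since its siEIF3G polysomal mean of 1.2 TPM rested on a single library at 2.56 TPM. The count of 6 is thus no support for a difference from the 28.9%. With no filter 2 members passed, with 4.32% of all genes lower. The median of all genes was itself -0.96, so that relative to it ITGB1 stood at -1.52, VIM at -1.02, CAV1 at -0.76, THBS1 at -0.74 and FN1 at -0.71, while ANKRD1 at -0.08, TGFBI at 0.2 and CCN1 at 0.21 lay close to it. Groups without overlap, lower on polysomes, were found for 5 members (VIM, ITGB1, CCN2, THBS1 and CAV1) and for 28.9% of all genes. Size-factor rescaling left 3 members past the threshold (ITGB1 -1.33, THBS1 -1.13, FN1 -1), with 16.2% of all genes lower. No member passed without any one of siCtrl polysomal 2, siCtrl polysomal 3, siCtrl input 2 or siCtrl input 3, when 0.537% to 1.09% of all genes were lower. Without siCtrl polysomal 1 the count was 1, with 1.09% of all genes lower, and without siCtrl input 1 it was 9, with 58.8%.

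In siEIF3G cells no member passed, whereas 1.33% of all genes were lower on polysomes past the threshold. The values were -1.26 for CAV1 (SE 0.62), -1.12 for FN1 (SE 0.6), -0.85 for THBS1 (SE 0.42), -0.83 for VIM (SE 0.46), -0.76 for CCN2 (SE 0.63), -0.54 for ITGB1 (SE 0.69), -0.24 for CCN1 (SE 0.5), -0.1 for TGFBI (SE 0.44) and 0.08 for ANKRD1 (SE 0.36), against a median of -0.49 for all genes. None of the 9 had groups without overlap in that direction, against 12.7% of all genes. All 9 members lay nearer to 0 in siEIF3G than in siCtrl cells, and the test of that difference is the polysomal minus input comparison, in which none passed. Without the 3 libraries that stand apart, 2 of which are siEIF3G libraries, 7 of the 9 passed in siEIF3G cells (ITGB1 -1.57, VIM -1.43) with 71.1% of all genes called in either direction, and 9 of 9 in siCtrl cells with 75.1%. Those 3 were picked for lying nearer to the other fraction. Leaving them out therefore favours a wider difference between fractions, and these counts are no support for one.

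**Figure D3:**
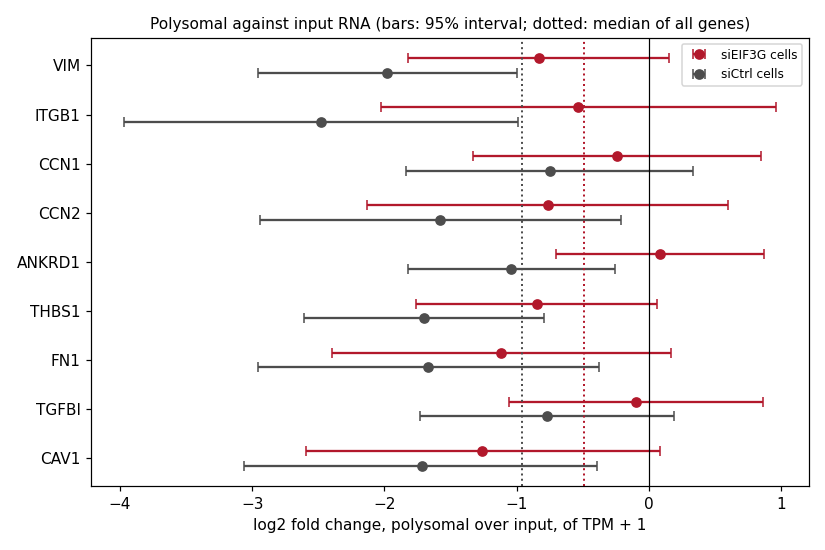
log2 fold change of TPM + 1, polysomal over input, for the 9 genes in siEIF3G and siCtrl cells (points are limma estimates over 3 libraries per group, bars their 95% intervals, dotted lines the medians of all genes, -0.49 and -0.96). All 9 points of siEIF3G cells lie to the right of those of siCtrl cells.

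Ratios between members within a library do not depend on the scaling of the library; they were picked after values had been seen. The CCN2 to CCN1 ratio was 0.16, 0.101 and 0.267 in siEIF3G polysomal, 0.11, 0.184 and 0.119 in siCtrl polysomal, 0.233, 0.202 and 0.281 in siEIF3G input and 0.251, 0.246 and 0.246 in siCtrl input RNA. It was lower on polysomes than in input in every siCtrl library (log2 difference -0.89), and did not separate siEIF3G from siCtrl in either fraction. The CCN1 to VIM ratio was 0.177, 0.249 and 0.152 in siEIF3G polysomal RNA, against 0.133, 0.0976 and 0.15 in siEIF3G input, and 0.249, 0.209 and 0.315 in siCtrl polysomal RNA, against 0.0868, 0.118 and 0.124 in siCtrl input. CCN1 was thus more abundant relative to VIM on polysomes than in input without overlap in siEIF3G cells (log2 difference 0.59) and in siCtrl cells (1.23). Each of these 3 differences had an exact two-sided permutation p of 0.1, the smallest that 3 against 3 libraries allow, and an adjusted p of 0.457 over 16 such tests. The ITGB1 to VIM ratio on polysomes was higher with siEIF3G by 0.84 on the log2 scale, with overlap (exact permutation p 0.2, adjusted 0.457).

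Most of the spread of the members within groups ran along one axis. Once group means were taken off, a single first axis carried 78% of the remaining variance of all genes. Of the variance of each member within groups it held 98.4% for FN1, 94.2% for THBS1, 90.8% for ITGB1, 85.1% for CAV1, 81.7% for CCN1, 79.7% for CCN2, 69.8% for VIM and 69.2% for ANKRD1, against a median of 76.5% over all genes, and only 4.65% for TGFBI (12 libraries). Along that axis the polysomal libraries lay at -35.9, -39.9 and 26 with siEIF3G, against -62.2, -48.8 and -96 with siCtrl (arbitrary units), so the axis separates those groups as well, and the input libraries at 73.5, -30.2 and 78.4 with siEIF3G, against -49.4, 71.5 and 113 with siCtrl. Its part in the higher polysomal values of VIM, ITGB1, CCN1 and CCN2 was not tested. With the deviation along the axis as a covariate, a setting chosen with earlier results of these data known, the estimates were as before and their errors smaller. That axis was taken from the same deviations that set the errors, so smaller errors were built in. All calls with the covariate are therefore descriptions and no support for a difference. With it 5 members passed in polysomal RNA, all higher with siEIF3G (limma, adjusted p 0.000238 for ITGB1, 0.00183 for VIM, 0.00863 for CCN2, 0.00924 for CCN1 and 0.0142 for FN1), together with 36.4% of all genes. In input 1 member passed, ANKRD1, lower with siEIF3G (adjusted p 0.0143), together with 0.264% of all genes; as a gene kept by the filter only through siCtrl input, its calls here and in the difference are descriptions. In the difference between the effects 3 passed, ITGB1 (adjusted p 0.00964), THBS1 (0.0146) and ANKRD1 (0.0155), together with 18% of all genes. THBS1 passed the filter only through input groups and was highest in siCtrl input (3.6 TPM, against 0.627 and 0.27 TPM on polysomes). The filter thus favours a positive difference for THBS1 as well.

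**Figure D4:**
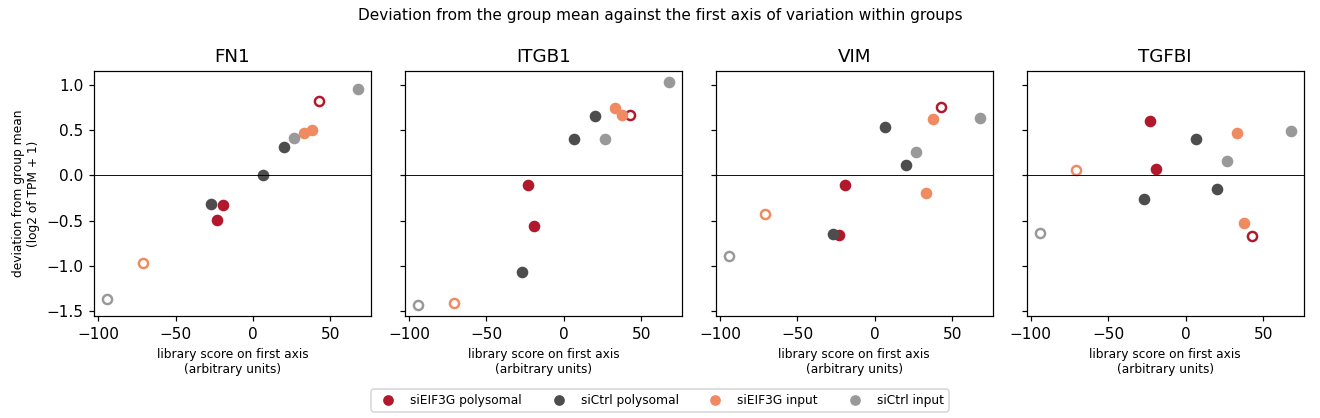
Deviation of 4 of the genes from their group mean, in log2(TPM + 1), against the score of each of the 12 libraries on the first axis of variation within groups (arbitrary units; open symbols are the 3 libraries nearer to the other fraction). FN1 (98.4% of its variance within groups along the axis), ITGB1 (90.8%) and VIM (69.8%) climb with the score, and TGFBI (4.65%) does not.

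The genes around YAP and TGF-beta were counted in lists, of which none had a member past the threshold in either knockdown comparison. The lists share some genes, AMOTL2 among them, so their counts are not independent. Of all genes tested 72.7% were positive in polysomal RNA and 43% in input. Of the YAP, TEAD and Hippo pathway genes 20 of 21 were tested, with 18 positive in polysomal RNA (median 0.48, against 0.33 for all genes) and 5 in input (median -0.12). AMOTL2, a scaffold that holds YAP at junctions, had a difference of 1.29 (SE 0.46) in polysomal and 0.62 in input RNA, and STK3, a Hippo kinase, 0.8 and -0.01. Of other YAP targets 14 of 20 were tested, with 14 positive in polysomal RNA (median 0.74) and 8 in input (median 0.12). Of TGF-beta ligands, receptors and SMADs 15 of 19 were tested, with 14 positive in polysomal (median 0.46) and 10 in input RNA (median 0.1), among them the receptor-activated SMAD3 at 0.93 and 0.3. Of other TGF-beta targets 14 of 17 were tested, with 11 positive in polysomal (median 0.38) and 9 in input RNA (median 0.17).

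Among markers of cell state, 8 of 14 other mesenchymal markers were tested, with 7 positive in polysomal RNA (median 0.75) and 5 in input (median 0.07); the calcium-binding protein S100A4 was at -0.67 and -0.53. Of the transcription factors of epithelial-mesenchymal transition 6 of 8 were tested, 5 positive in polysomal (median 0.28) and 2 in input RNA (median -0.15), with ZEB1, a repressor of epithelial genes, at 0.62 and -0.39. Of epithelial markers 8 of 16 were tested, with 4 positive in polysomal (median -0.07) and 2 in input RNA (median -0.25); the tight-junction scaffold TJP1 was at 1.02 and -0.2. Of other integrins and focal adhesion genes 20 of 23 were tested, 16 positive in polysomal (median 0.57) and 16 in input RNA (median 0.18), with the actin cross-linker ACTN4 at 1.97 (SE 0.49) and 0.39. Of caveolar genes 4 of 6 were tested, 2 positive in polysomal (median 0.32) and 3 in input RNA (median 0.03); CAV2, the partner of CAV1, was at 0.93 and 0.03 and CAVIN1 at -0.22 and -0.1. Of cytoskeletal and SRF targets 11 of 14 were tested, 6 positive in polysomal (median 0.3) and 7 in input RNA (median 0.11), with the myosin light chain MYL9 at -0.57 and -0.18. Of the markers of other cell types only CD68 was tested, at 0.2 and 0.08.

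In siCtrl cells, polysomal against input RNA, 3066 of all 10605 genes tested (28.9%) were lower and 846 higher on polysomes past the threshold, so calls of lower genes outnumber the others before any list is looked at. Against that background, genes lower and genes higher on polysomes numbered 9 and 1 of 20 tested for the Hippo pathway, 8 and 0 of 14 for other YAP targets, 7 and 0 of 20 for integrins and focal adhesion, and 3 and 0 of 15 for TGF-beta ligands, receptors and SMADs. They numbered 3 and 3 of 14 for other TGF-beta targets, 2 and 0 of 6 for the transition factors, 2 and 2 of 8 for mesenchymal markers, 2 and 1 of 8 for epithelial markers, 1 and 0 of 4 for caveolae, and 0 and 1 of 11 for SRF targets. No test compared the lists with each other or with the other genes. The balance of directions depends on the scaling: with size factors 4558 genes passed, of which 1723 were lower. The list medians were -1.66 for the Hippo pathway and -1.74 for other YAP targets, against -1.67 for the 9 members, -0.96 for all genes and 0.41 for SRF targets.

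The genes whose log2(TPM + 1) ran most like each member over the 12 libraries, among 7261 genes averaging 5 TPM or more, are a description, since all share libraries, fractions and the axis. For VIM they were ALDH9A1 and BAIAP2L1 (Pearson's r 0.99 each), for ITGB1 DDX1 and HSPD1 (0.99 each), for CCN1 PRPSAP1 and YY1AP1 (0.99 each) and for CAV1 SNRNP27 (0.99). For CCN2 they were GARS1 (0.97 by Spearman's rho) and DUSP6 (r 0.99), and for THBS1 C4orf46 and ARPP19 (r 0.99 each). Likeness was weaker for ANKRD1, with IDI1 at 0.91 and RDH11 at 0.9, and for TGFBI, with PDLIM1 at 0.9 and LOXL2 at 0.89.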

How the data were processed

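RNA from input lysate and from the polysomal fraction was sequenced in 12 libraries. The authors deposited TPM for each gene. The submitters' processing notes name RSEM 1.3.1 and the genome build GRCh38.p13. Aligner, annotation, filters and strandedness were not given in the sources used here, so overlapping and antisense transcripts cannot be told apart. TPM keep no depth, so no counting error can be given, and a change of all mRNAs alike leaves them as they are.

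Genes averaging 1 TPM or more were kept (10605 of 16172; 5567 set aside; 9 of 9 members kept). log2(TPM + 1) was fitted as 4 group means in R 4.3.3 by limma 3.58.1, using its trend option and moderated errors on 8 residual degrees of freedom. There were 5 comparisons, each adjusted by Benjamini-Hochberg over all genes tested, with a threshold of 0.05. The code was run on simulated data with known changes. That noise was independent between genes and capped at the median spread, unlike the shared axis in these libraries. The run therefore checks the code and not the error rates or power here. Alternatives were other pseudocounts, filters and scalings, the fit's options, only the groups compared, a replicate block, each library left out and, from earlier results of these data, the first axis as a covariate and 3 libraries left out.

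Named were the 9 members, EIF3G, of each list up to 3 genes with the smallest p in polysomal and 2 in input RNA, and the 2 genes most like each member. CDH1 serves the check of the line. Some genes that the rule names are withheld and not reported here. The members and lists were chosen with earlier results of these data known.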

Additional observations from a re-analysis of the deposited data

How the results depend on the processing

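Of 1051 values of the 45 gene results under the alternatives, 917 kept their direction and side of the threshold. In siCtrl cells, where 6 members passed between polysomal and input RNA, 3 did with a pseudocount of 5 (13.3% of all genes called in either direction), 2 with no filter (7.73%), 3 with a minimum of 5 TPM (36.6%), 3 with size factors (43%), 1 with only the groups compared (5.75%), 4 with quantile normalization (27.3%) and 0 to 9 with 1 library left out (1.23% to 67.8%). The first axis as a covariate gave 5 members in polysomal RNA (36.4% of all genes), 1 in input (0.264%), 3 in the difference (18%), and 5 in siEIF3G (61.3%) and 8 in siCtrl cells (74.3%) between fractions. Leaving out 3 libraries gave 7 in siEIF3G cells (71.1%). Both settings were drawn from these data, the axis from the deviations themselves and the 3 libraries for lying nearer to the other fraction. Their higher counts are no support for a difference. With 1 library left out the other 4 counts stayed at 0 to 0.

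Signs turned under size factors for CAV1 (polysomal -0.12, difference -0.1), FN1 (input 0.01), CCN1 (difference -0.06; between fractions 0.36 in siEIF3G and 0.42 in siCtrl cells), ITGB1 (siEIF3G cells 0.06) and TGFBI (0.33 in siEIF3G and 0.09 in siCtrl cells). They turned under quantile normalization for FN1 (input 0.06), TGFBI (0.45 in siEIF3G and 0.42 in siCtrl cells) and ANKRD1 (siCtrl cells 0.06), and without the 3 libraries for CAV1 (polysomal -0.2, difference -0.03), ANKRD1 (-0.08) and TGFBI (0.26), both in siEIF3G cells. The cause was not tested.

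With 1 library left out, polysomal values spanned -0.22 to 0.13 for ANKRD1 and -0.2 to 0.82 for CAV1; input values -0.15 to 0.61 for VIM, -0.42 to 0.99 for ITGB1, -0.1 to 0.91 for CCN1, -0.15 to 0.92 for CCN2, -0.76 to 0.41 for FN1, -0.48 to 0.1 for TGFBI and -0.68 to 0.45 for CAV1. The difference for CAV1 spanned -0.14 to 1.09, and in siEIF3G cells CCN1 spanned -0.63 to 0.2, ANKRD1 -0.08 to 0.22 and TGFBI -0.4 to 0.23. A fit with the replicate number as a block left 4 members past the threshold in siCtrl cells, and 2121 of all genes. Without the block 3066 genes were lower and 846 higher. Of 18 same-numbered pairs, 6 correlated over 0.1 in their deviations. Deviations run mostly along the first axis and most pairs cross siRNAs, so these correlations cannot decide whether same-numbered libraries are paired. The main fit uses no pairing. A minimum of 5 TPM leaves only 5 members, and the difference has no value with only the groups compared.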

Other observations

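Outside the 9 members, SERPINH1, a collagen chaperone, had a log2 fold change of TPM + 1, siEIF3G over siCtrl, of 1.11 (SE 0.38) in polysomal and 1.09 (SE 0.38) in input RNA, and its siEIF3G and siCtrl groups did not overlap in input. FJX1, a YAP target and the human relative of the fly gene four-jointed, stood at 0.72 (SE 0.32) and 0.71 (SE 0.32), with siEIF3G higher and no overlap in either fraction. CCN1, CCN2 and ANKRD1 were each separated in one fraction only. Of all 10605 genes tested, 2286 had siEIF3G higher without overlap in polysomal RNA and 199 in input. SERPINH1 and FJX1 were named for a small p, so their lack of overlap is a description. Neither gene passed the threshold in either comparison (limma, adjusted p 0.65 in polysomal and 1 in input RNA for both). Both fall under the naming rule for the lists.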
